A study of Mus musculus with 3 samples.

Results

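The CXC chemokines Cxcl1, Cxcl2, Cxcl3, Cxcl5 and Ppbp and the receptor Cxcr2 were followed through the cell types where mouse colon meets anus, in untreated tissue, in acute colitis and weeks later. They were chosen by name from the deposited gene table, where each symbol occurs once, and are 6 of its 31053 genes. The ligands are small secreted proteins that carry a glutamate-leucine-arginine motif before their CXC motif, and they attract neutrophils by binding Cxcr2 on the neutrophil surface. Epithelial cells, fibroblasts, endothelium and myeloid cells can all make them, often in response to interleukin 1, interleukin 17 or tumour necrosis factor acting through NF-kappaB. Ppbp (pro-platelet basic protein, the precursor of Cxcl7) is best known as a product of platelets, and Cxcl5 as a product of epithelium.

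Single-cell RNA sequencing was done on distal colon and anus of wild-type C57Bl/6 mice bought at 6 weeks of age. Dextran sulfate sodium (DSS), which injures the gut lining, was given at 3% in drinking water for 6 days. Untreated mice were taken at day 0, and DSS-treated mice at day 7 and at day 42. Each day is a single library (1 per day) from pooled tissue of 5 mice, which was digested with trypsin, depleted of dead cells and made into 10x Chromium 3' libraries. Mice could not be told apart within a pool, so no difference between days was tested and no p-value is given. The intervals in the text are exact 95% intervals (Poisson for levels and ratios, Clopper-Pearson for shares of cells) and describe counting error alone, so differences among mice are not in them.

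The ligand genes lie side by side on the plus strand of mouse chromosome 5. In the GENCODE M21 annotation of GRCm38, the order is Cxcl5 (ENSMUSG00000029371, chr5:90759360-90761624), Ppbp (ENSMUSG00000029372, chr5:90768518-90770063), Cxcl3 (ENSMUSG00000029379, chr5:90786103-90789600), Cxcl1 (ENSMUSG00000029380, chr5:90891241-90893115) and Cxcl2 (ENSMUSG00000058427, chr5:90903871-90905938). They span 146579 bases, with Pf4 and Cxcl15 as the other protein-coding genes in between. Cxcl5 and Ppbp are 6893 bases apart, and Cxcl1 and Cxcl2 are 10755 bases apart. Cxcr2 (ENSMUSG00000026180) is on chromosome 1, chr1:74153989-74161246. None of the 6 genes overlaps another gene of this annotation. Which reads entered the deposited counts was not tested.

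The stretches of 120 bases before the transcription start are shown for 4 ligands, so that the ligands with and without a kappaB match can be compared. The sequences are from RefSeq on GRCm38.p6, plus strand, 5′ to 3′, and cover chr5:90891125-90891244 for Cxcl1, chr5:90903779-90903898 for Cxcl2, chr5:90785981-90786100 for Cxcl3 and chr5:90768398-90768517 for Ppbp. Capitals mark matches to the kappaB motif GGGANNTTCC, which NF-kappaB proteins bind, on either strand.
Cxcl1: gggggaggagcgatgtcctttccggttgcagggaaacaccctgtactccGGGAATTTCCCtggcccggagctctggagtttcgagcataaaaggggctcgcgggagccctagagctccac
Cxcl2: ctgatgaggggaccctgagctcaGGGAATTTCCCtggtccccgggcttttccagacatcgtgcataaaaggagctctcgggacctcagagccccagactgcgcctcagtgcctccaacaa
Cxcl3: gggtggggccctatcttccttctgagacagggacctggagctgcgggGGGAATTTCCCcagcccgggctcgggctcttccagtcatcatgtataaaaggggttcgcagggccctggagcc
Ppbp: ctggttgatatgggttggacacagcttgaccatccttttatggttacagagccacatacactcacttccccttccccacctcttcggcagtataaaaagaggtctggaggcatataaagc

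The promoter table held 5 of the 6 members, all but Cxcl5. Its windows run from 250 bases before to 50 bases after the start, and 3 of the 5 members had a kappaB match in them, at 71 bases before the start for Cxcl1, 97 for Cxcl2 and 73 for Cxcl3. In each, another match on the other strand overlapped the first and began 1 base later, so that the same run GGGAATTTCCC was marked in all 3. The motif was present in 1.47% of 32851 promoter windows, on either strand. The letters ATAAAA, as in a TATA box, stood before the start of these 3 genes and of Ppbp, and 11.1% of windows held them on the gene's strand. The Ppbp and Cxcr2 windows held no kappaB match. A match describes the letters in the window and shows no binding.

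Cxcl2 and Cxcl3 share 116 bases that are 98.3% identical in their transcripts. In the Cxcl3 transcript this stretch ends 868 bases before the 3' end, and in Cxcl2 it ends 1705 bases before the end of the longest transcript. The Cxcl2 gene spans 2068 bases with up to 4 exons, so the 1705 bases may include intron sequence. The distance in a spliced Cxcl2 transcript is not given here and may be shorter. Cxcl1 shared 84 bases at 81.0% identity with Cxcl2 and 128 at 78.9% with Cxcl3, and no other pair of members aligned over 50 bases or more. How the counting treated reads from the shared stretch was not tested.

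Cell numbers were 11037 (day 0), 14376 (day 7) and 11667 (day 42), with 72258639 to 151886649 counts per library and 5708 to 6217.5 counts in the median cell. Mitochondrial counts were above 20% in 32.1%, 14.9% and 12.97% of cells. Of the cell barcodes, 139 occurred in 2 libraries, which together covered 278 cells (0.75%). The 14 cell type names and 29 cluster numbers are the authors' own. Keratinocytes, colonocytes, fibroblasts, endothelial cells, macrophages and T cells had all markers of their own lists above 5 CPM at each day. Neutrophils had 8 of 8 at day 7 and day 42 and 7 of 8 in the 5 neutrophils of day 0. Levels are given on the CPM scale, as a gene's counts relative to all counts of that cell type in that library. Median counts per cell differed between types, from 662 in the neutrophils of day 42 to 11481 in the keratinocytes of day 7, so shares of cells with a count are also given after each cell was thinned to 500 counts, a depth that every cell reached. T cells, which are not known as a main source of these ligands, stand beside the shares for comparison. They had 2064, 2260 and 1393 counts in the median cell at day 0, day 7 and day 42. They are no pure measure of free RNA, since the 4 mast cell markers summed to 101.35, 666 and 120.4 CPM in them, with 1, 4 and 2 of 4 above 0. At day 7 the 11 T cells of cluster 28 held 11 of the 18 Cxcl5 counts and 7 of the 17 Ppbp counts of all 118 T cells. The part of mast cell transcripts in the T cell values was not tested.

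Over whole libraries, all members but Cxcl1 had their lowest level before injury, and Cxcl1 had its lowest at day 42. Cxcl1 had 11.7 CPM at day 0, 45.0 at day 7 and 3.75 at day 42. Cxcl2 had 8.22, 482 and 52.0 CPM, and Cxcl3 had 0.52, 83.2 and 36.8. Cxcl5 had 9.19, 310.3 and 360.3 CPM, and Ppbp had 80.7, 613 and 1513. Cxcr2 had 0.20, 20.5 and 5.13 CPM. Cxcl1, Cxcl2, Cxcl3 and Cxcr2 were thus highest during colitis, while Cxcl5 and Ppbp were highest after it, with intervals of day 7 and day 42 that did not overlap for any of the 6.

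**Figure D1:**
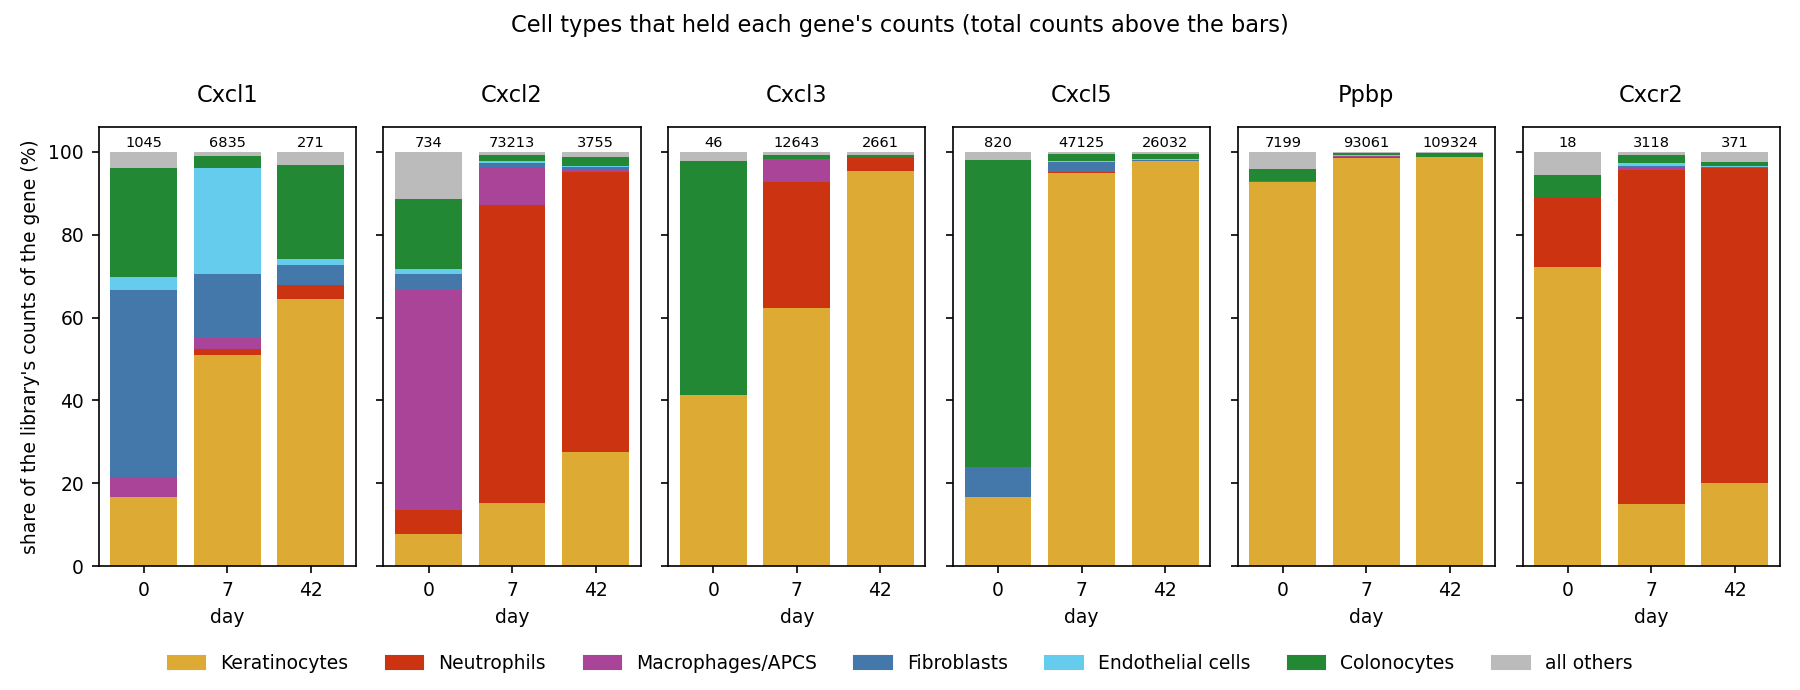
Each bar splits the counts of 1 gene in 1 library (y axis, percent; x axis, day) by the authors' cell types, with the total number of counts above the bar. Keratinocytes held most counts of Cxcl5 and Ppbp at day 7 and day 42, neutrophils most counts of Cxcl2 and Cxcr2 at the same days, and Cxcl1 was spread over keratinocytes, endothelium and fibroblasts at day 7.

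Cxcl5 was close to absent from keratinocytes before injury and present in a substantial share of them at both later days. Keratinocytes, the squamous epithelial cells of the anus, had 4.03 CPM (3.38 to 4.76) at day 0, 349 (345 to 352) at day 7 and 438 (432 to 443) at day 42. The day 0 level was below both later ones, by a ratio of 86.5 (73.2 to 103) for day 7 and 109 (91.8 to 129) for day 42. A Cxcl5 count was found in 1.27%, 27.3% and 23.4% of keratinocytes, or 0.12%, 7.27% and 7.69% after thinning. In T cells the thinned shares were 0%, 1.69% and 1.65%, and with the T cells' counts per cell subtracted the log2 ratios of day 7 and day 42 against day 0 in keratinocytes were 4.63 and 4.99, beside 4.68 and 5.00 without it. Keratinocytes held 16.7% of the library's Cxcl5 counts at day 0, 94.9% at day 7 and 97.7% at day 42. Before injury most Cxcl5 counts, 74.0%, were in colonocytes, the columnar cells of the colon, at 15.2 CPM (14.1 to 16.5).

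Within the keratinocytes, different clusters carried Cxcl5 during and after colitis. Cluster 3 had 1.30 CPM at day 0, 592 (586 to 598) at day 7 and 117 (110.4 to 124) at day 42. It was 1983 of 9035 keratinocytes at day 7 and held 70.1% of that library's Cxcl5 counts. At day 7, 69.1% of its cells had a Cxcl5 count, with a median of 7 counts in those cells, and 17.1% did after thinning. Cluster 5 had 65.8 CPM (52.8 to 81.1), 2600.3 (2547 to 2655) and 1156 (1141 to 1172), the highest level of any keratinocyte cluster at each day, though 10 cells held 87.5% of its 88 counts at day 0. It was 162 keratinocytes at day 7 and 2153 at day 42, when it held 82.6% of the library's Cxcl5 counts. Cluster 1 had 1 Cxcl5 count at day 0 (0.24 CPM), then 96.6 CPM (89.3 to 104) and 123 (118 to 127). Cluster 12 had no count in 51 cells at day 0, then 378 CPM (359 to 398) and 579 (481 to 692). Its cells were shallow, with 1948, 1672.5 and 1010.5 counts in the median cell, and at day 7 it had 6552 CPM of the 8 neutrophil markers, beside 952 in cluster 3 and 1517 in cluster 5. Of the 1517 CPM in cluster 5, 1069 were S100a9, and keratinocytes held 80.7% of the S100a9 counts of day 0. Clusters 4, 8, 9, 13 and 17 were at or below 42.9 CPM at every day. Where each cluster counted equally, Cxcl5 in keratinocytes exceeded its day 0 level by a log2 ratio of 4.54 for day 7 and 3.72 for day 42, so the order of these days depended on the weighting. The clusters were drawn by the authors from expression of the same cells, so their sizes and their levels are not independent of each other.

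**Figure D2:**
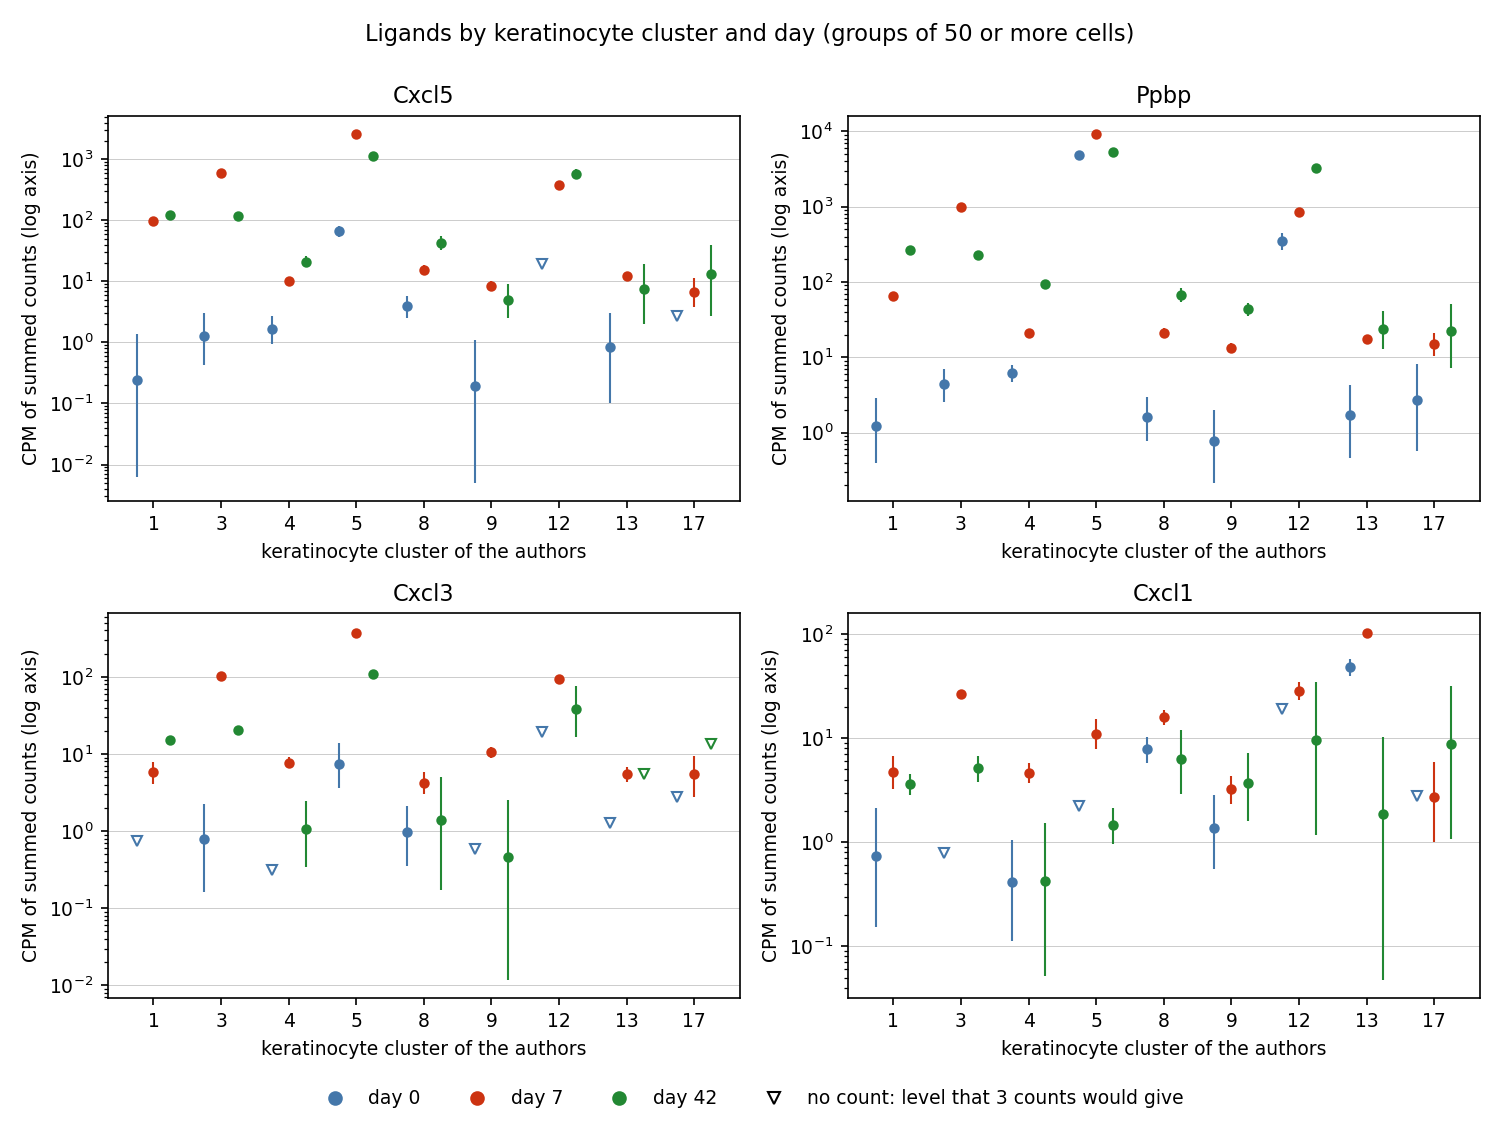
Levels of 4 ligands (y axis, CPM of summed counts, log axis) in the authors' keratinocyte clusters (x axis) at 3 days, with exact 95% counting intervals as bars and open triangles at the level that 3 counts would give where there was no count. Cxcl5, Ppbp and Cxcl3 were highest in cluster 5, and Cxcl1 in cluster 13 at day 0 and day 7.

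Cxcl5 was also counted in fibroblasts. They had 9.03 CPM (6.87 to 11.6) at day 0, 620.3 (585 to 657) at day 7 and 131 (105.6 to 161) at day 42, in 1436, 316 and 222 cells. Day 7 was above day 0 by a ratio of 68.7 (52.9 to 90.9). The 6 keratinocyte markers summed to 997.7, 1544 and 3623 CPM in fibroblasts, with 6 of 6 above 0 at each day, beside 9599, 13844 and 20772 in keratinocytes. Their part in the fibroblast Cxcl5 levels was not tested. The thinned share was 12.98% (9.47 to 17.2) at day 7, above T cells (1.69%, 0.21 to 5.99), while at day 42 it was 4.50% (2.18 to 8.13) and overlapped with T cells (1.65%, 0.20 to 5.84). At day 7 the 10 fibroblasts with most counts held 51.5% of the Cxcl5 counts of this cell type, and without such cells the log2 ratio of day 7 against day 0 was 4.76 beside 5.05. At day 7, with those 10 cells included, fibroblasts had the highest Cxcl5 level of the cell types with 50 or more cells. Keratinocytes and colonocytes (88.2 CPM, 82.0 to 94.7) followed, with no overlap of the intervals of these 3 types. The order of fibroblasts and keratinocytes without those 10 cells is not given here. Endothelial cells (45.4 CPM, 37.4 to 54.7), macrophages (43.0, 32.5 to 55.7) and T cells (54.3, 32.2 to 85.8) overlapped with each other at that day. The thinned shares of endothelial cells (2.24%, 0.91 to 4.57), macrophages (1.80%, 0.59 to 4.15) and neutrophils (0.99%, 0.56 to 1.63) lay within the interval of T cells.

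Ppbp counts were mainly in keratinocytes at every day, although platelets are the known source of the protein. Keratinocytes had 196 CPM (191 to 201) at day 0, 715 (710.2 to 719) at day 7 and 1855 (1843 to 1866) at day 42, and they held 92.6%, 98.6% and 98.6% of all Ppbp counts. A Ppbp count was present in 1.39%, 8.61% and 14.4% of thinned keratinocytes, beside 0.46%, 4.24% and 2.48% of thinned T cells. The keratinocyte share of day 7 lay within the T cell interval (1.39 to 9.61), and that of day 42 lay above it (0.51 to 7.07). In fibroblasts and endothelial cells of day 42 the thinned shares were 1.80% and 3.28%, within the same interval. Enteroendocrine cells of the colon had a higher Ppbp level than keratinocytes at day 0, 478 CPM, but all 272 counts were in 1 of 78 cells. The fibroblast level at day 42, 232 CPM, rested on 10 cells with 95.6% of the counts. The 4 platelet markers (Pf4, Itga2b, Gp1bb and Gp9) summed to 8.26 CPM, 6.06 and 5.38 in keratinocytes, with 3 of 4 above 0 at each day. Most of this was Itga2b, an integrin chain of platelets, with 7.41, 4.81 and 3.60 CPM, and keratinocytes held 81.6%, 89.7% and 91.7% of its counts. Gp9 had no count in keratinocytes and was nearly absent from the libraries as a whole. Pf4, the gene next to Ppbp and another platelet chemokine, had 0.47, 1.04 and 1.74 CPM in keratinocytes. In cluster 5, where Ppbp was highest, Pf4 had 4.49, 7.84 and 4.68 CPM, and the cluster held 1.52%, 7.94% and 52.1% of the library's Pf4 counts. Macrophages held 67.3% of them at day 0 (676 CPM), 39.4% at day 7 and 1.20% at day 42.

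Within keratinocytes, Ppbp was concentrated in cluster 5, which had 4868 CPM (4751 to 4988) at day 0, 9277 (9175 to 9379) at day 7 and 5315 (5282 to 5349) at day 42. Its level at day 42 was 1.09 times that of day 0 (1.06 to 1.12), but 10 cells held 70.6% of its day 0 counts. Without the 10 cells with most counts at each day, an alternative chosen after seeing the data, its levels were 1790.4, 6424 and 4976 CPM, and day 42 was 2.78 times day 0. Those cells held 70.6% of the counts in 87 cells at day 0 and 7.59% in 2153 cells at day 42. Such unequal trimming raises the ratio by itself, so the 2.78 does not replace the 1.09. Its cells were 87 of 3316 keratinocytes at day 0, 162 of 9035 at day 7 and 2153 of 7970 at day 42. It held 90.4% of the library's Ppbp counts at day 0, 34.3% at day 7 and 90.4% at day 42. At day 7 cluster 3 held more, 59.1%, with 4.42 CPM at day 0, 985 (977 to 993) at day 7 and 228 (218 to 237) at day 42. Cluster 1 had 1.22, 65.0 and 265 CPM. When the clusters were given equal weight, the log2 ratio of Ppbp in keratinocytes was 1.09 for day 7 against day 0 and 0.82 for day 42 against day 0, beside 1.81 and 3.18 with cells weighted by their counts, and the ratio of day 42 against day 7 was -0.28 beside 1.36. The order of day 7 and day 42 in keratinocytes therefore depended on how the clusters were weighted. Without the 10 cells with most Ppbp counts at each day, the log2 ratios against day 0 were 3.11 and 4.61, since such cells held 68.9% of the day 0 keratinocyte counts.

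Cells with Cxcl5 often had Ppbp. For counts found together in a cell, cells were thinned to 1000 counts, which left out 34, 468 and 91 keratinocytes and 33 fibroblasts of day 7. Of these cells, 49.5% of the 891 day 7 keratinocytes with a Cxcl5 count had a Ppbp count, and 7.6% of the 7676 without one did. At day 42 the shares were 71.7% of 859 and 11.1% of 7020. Inside cluster 5 the shares were 89.5% and 31.4% at day 7, and 86.7% and 30.1% at day 42. Inside cluster 3 at day 7 they were 51.3% and 16.8%. A Cxcl3 count was found in 14.6% of day 7 keratinocytes with Cxcl5 and in 2.1% of those without. For Cxcl1 the same shares were 2.6% and 1.7%, a smaller difference than for Ppbp. In fibroblasts of day 7, 18 of 60 cells with Cxcl5 had a Cxcl1 count and 36 of 223 cells (16.1%) without it did.

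Cxcl3 was nearly absent before injury, with 46 counts in the whole day 0 library. In keratinocytes it had 0.56 CPM (0.34 to 0.87) at day 0, 61.5 (60.1 to 62.8) at day 7 and 43.6 (42.0 to 45.4) at day 42. It was found in 0%, 1.91% and 1.17% of thinned keratinocytes. T cells had 0, 3 and 0 counts of it, and 0.85% of them had a count at day 7 after thinning. Keratinocyte cluster 5 had 7.48, 375 and 108 CPM, and cluster 3 had 0.78, 104 and 20.3. In neutrophils Cxcl3 had 912 CPM (883 to 941) at day 7 and 244 (194 to 303) at day 42, a level 3.73-fold lower. In macrophages and other antigen-presenting cells, which the authors named together, it had no count in 91 cells at day 0 and 503 CPM (465 to 543) in 278 cells at day 7, at least 66-fold higher by a floor of 3 counts in the day 0 group. The 8 neutrophil markers summed to 114 and 5351 CPM in macrophages at these days, with 6 and 8 of 8 above 0, and their part in the Cxcl3 level was not tested. Among types with 50 or more cells at day 7, Cxcl3 was highest in neutrophils, then in macrophages, then in keratinocytes, with no overlap of intervals. Of the 12 enteroendocrine cells of that day, 1 had 28 counts.

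Among types with 50 or more cells at day 7, Cxcl1 was highest in endothelial cells, then in fibroblasts and then in macrophages, with no overlap of intervals. Endothelial cells had 78.3 CPM (53.9 to 109.9) at day 0, 713 (680 to 747) at day 7 and 10.7 (2.93 to 27.5) at day 42, in 100, 312 and 122 cells. Fibroblasts had 72.1 CPM (65.7 to 78.9), 574 (540 to 610) and 19.0 (10.1 to 32.4). In both, day 7 was above day 0, by a ratio of 9.10 (6.46 to 13.3) in endothelium and 7.96 (7.14 to 8.90) in fibroblasts. In both, day 42 was below day 0, by 7.29-fold and 3.80-fold, on 4 and 13 counts. Their median cells had fewer counts at day 42 (2575.5 and 2645.5) than at day 0 (3603 and 4366). After thinning, 20.2% of endothelial cells and 13.6% of fibroblasts had a Cxcl1 count at day 7, while T cells had no count in 118 cells. A floor of 3 counts would be 9.04 CPM in those T cells.

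Keratinocytes had lower Cxcl1 levels but many more cells. Their level was 5.15 CPM (4.41 to 5.97) at day 0, 27.1 (26.2 to 28.1) at day 7 and 3.01 (2.58 to 3.49) at day 42, and they held 50.9% of Cxcl1 counts at day 7. The 10 cells with most counts held 70.3% of the day 0 keratinocyte counts. Cluster 13 held 113 of the 175 day 0 counts, with 47.7 CPM (39.3 to 57.4), then 102 (97.3 to 108) at day 7 and 1.85 (0.05 to 10.3) at day 42. Cluster 3 had no count at day 0, 26.7 CPM at day 7 and 5.12 at day 42. The log2 ratio of day 7 against day 0 was 0.97 when clusters counted equally, beside 1.29. In macrophages Cxcl1 differed little between day 0 (127 CPM, 94.3 to 168) and day 7 (139, 120.1 to 161), a ratio of 1.10 (0.80 to 1.53).

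**Figure D3:**
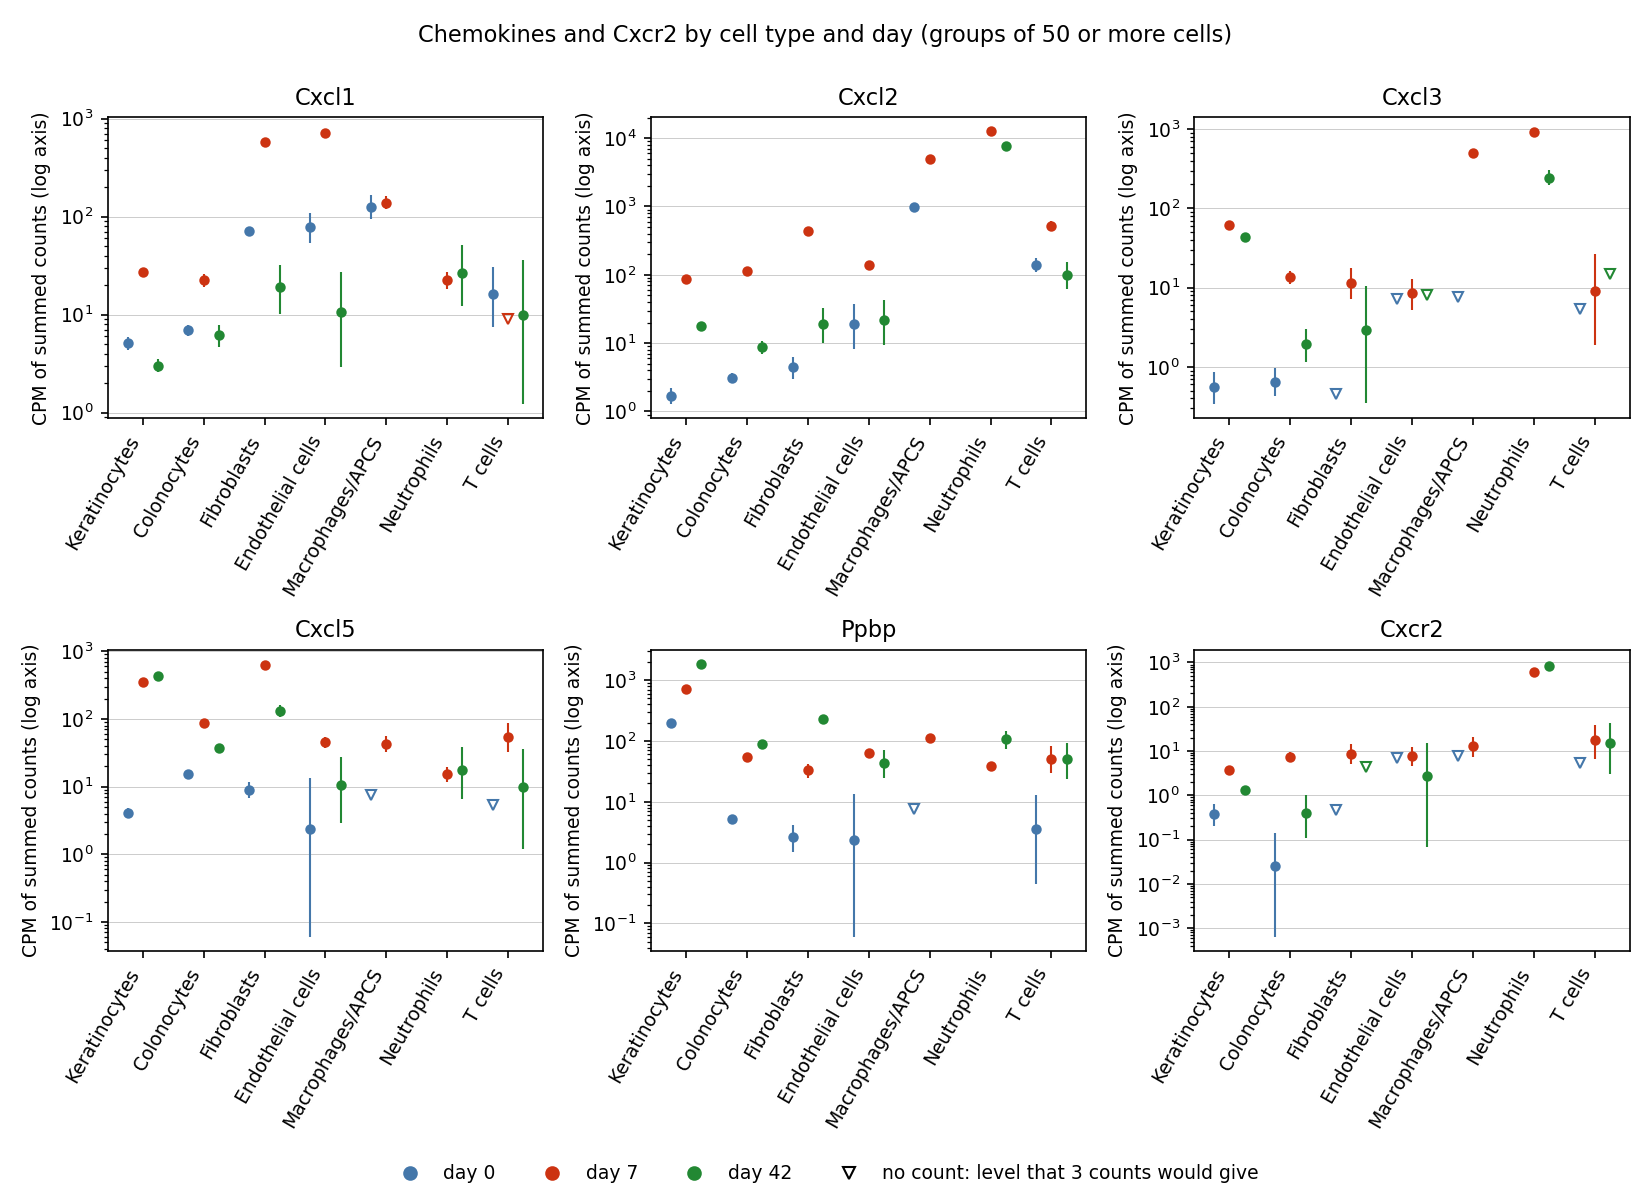
Levels of the 6 genes (y axis, CPM of summed counts, log axis) in 7 of the authors' cell types (x axis) at 3 days, with exact 95% counting intervals as bars and open triangles at the level that 3 counts would give where there was no count. Cxcl1 in endothelium and fibroblasts was highest at day 7 and lowest at day 42, while Ppbp in keratinocytes was highest at day 42. The 5 neutrophils of day 0 and the 44 macrophages of day 42 are left out.

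Cxcl2 was mainly a neutrophil transcript, and neutrophils also carried its receptor. Neutrophils had 12525 CPM of Cxcl2 (12418 to 12632) in 1513 cells at day 7 and 7551 (7260 to 7851) in 448 cells at day 42. The 5 neutrophils of day 0 had 43 counts. After thinning, 90.4% of neutrophils had a Cxcl2 count at day 7 and 74.6% at day 42, beside 11.02% and 3.31% of T cells. Neutrophils held 71.9% of the library's Cxcl2 counts at day 7 and 67.5% at day 42. At day 0 macrophages held 53.0%, with 988 CPM (893 to 1092) in 91 cells, and they had 4929 CPM (4810.3 to 5050) at day 7, a ratio of 4.99 (4.50 to 5.54).

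Where Cxcl2 was counted in other cell types at day 7, genes of the neutrophil marker list were counted too. Some of them are not particular to neutrophils. At day 0, with 5 neutrophils in the library, keratinocytes held 56.1% of the S100a8 counts, 80.7% of S100a9 and 86.4% of Il1r2. At day 7 S100a8 and S100a9 had 597 and 825 CPM in keratinocytes, so their marker sum is no pure measure of neutrophil RNA. Keratinocytes had 1.68, 87.7 and 17.8 CPM of Cxcl2, colonocytes 3.12, 113 and 8.78, endothelial cells 19.0, 140 and 21.5, and T cells 139, 525 and 100.3. The 8 neutrophil markers summed to 65.2, 1598 and 206 CPM in keratinocytes, 87.3, 3582 and 462 in colonocytes, 4.74, 2922 and 258 in endothelial cells and 39.8, 4585 and 537 in T cells, with 8 of 8 above 0 at day 7 in each. In fibroblasts they summed to 20.2, 3155 and 469.9 CPM, also with 8 of 8 at day 7. The summed level in neutrophils was 250785 CPM at day 7. The log2 ratio of Cxcl2 for day 7 against day 0 was 3.07 in keratinocytes, 3.23 in colonocytes and 2.37 in endothelial cells. T cells had more Cxcl2 counts per cell than these types at both days, and a higher level at day 0, so subtracting their counts gives no usable value for Cxcl2. In fibroblasts Cxcl2 had 4.44 CPM (2.97 to 6.37), 438 (408 to 470) and 19.0 (10.1 to 32.4), a log2 ratio of 4.96 for day 7 against day 0. At day 7 thinned fibroblasts had a Cxcl2 count in 11.1% of cells (7.84 to 15.1), and 10 cells held 66.7% of the fibroblasts' counts. Cluster 22, which the authors named colonocytes, had 279 cells at day 7, with 546 CPM of Cxcl2 and 13134 CPM of the neutrophil markers. It also had 8168 CPM of the keratinocyte markers, beside 5027 CPM of the colonocyte markers.

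Cxcr2, the receptor, had 80.4% of its counts in neutrophils at day 7 and 75.7% at day 42, and 15.0% and 20.2% in keratinocytes. At day 0 the library had 18 Cxcr2 counts, of which 13 (72.2%) were in keratinocytes, with 10 in cluster 4, and 3 were in the 5 neutrophils. At day 7 neutrophils had 597 CPM (574 to 621) and at day 42 they had 837 (742 to 941), a ratio of 1.40 (1.23 to 1.59). The log2 ratio was 0.48, beside a median of 0.26 for all genes in neutrophils between these days. S100a8 had 89485 and 37677 CPM in neutrophils at day 7 and day 42, and S100a9 had 127202 and 66838. The part of their lower levels in the Cxcr2 ratio was not tested. A Cxcr2 count was found in 72.6% of neutrophils at day 7, with a median depth of 2585, and in 41.5% at day 42, with a median depth of 662. The T cell shares were 4.24% and 1.65%. After thinning to equal depth the neutrophil shares were 27.3% (25.1 to 29.6) and 33.5% (29.1 to 38.1), and the order of the days was that of the CPM. Thinning does not adjust for the lower S100a8 and S100a9 levels of day 42. Keratinocytes had 0.38, 3.66 and 1.29 CPM. At day 7 the thinned shares were 0.85% in T cells (1 of 118 cells, 0.02 to 4.63), 0.31% in keratinocytes, 0.30% in colonocytes and 0% in macrophages. The T cell interval covered the keratinocyte and colonocyte shares.

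The counts of Cxcl2 per count of Cxcr2 at day 7 were compared across cell types. The ratio was 20.98 in neutrophils (20.1 to 21.8), 24.0 in keratinocytes (21.9 to 26.4), 18.1 in endothelial cells (11.4 to 30.4), 29.0 in T cells (13.1 to 80.1) and 15.2 in colonocytes (11.8 to 19.9). The intervals of endothelial and T cells covered the neutrophil value, while that of keratinocytes lay above it and that of colonocytes below. In fibroblasts the ratio was 50.1 (30.7 to 88.1) and in macrophages 385 (240.0 to 661), both above neutrophils. Within keratinocytes it ran from 14.4 (11.8 to 17.7) in cluster 4 to 68.1 (34.3 to 159) in cluster 5, with 34.4 (28.8 to 41.4) in cluster 3, so the pooled keratinocyte value is a mix. At day 42 the ratio was 9.02 in neutrophils (7.97 to 10.2) and 13.8 in keratinocytes (10.9 to 17.6). The part of free neutrophil RNA in these counts was not tested.

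**Figure D4:**
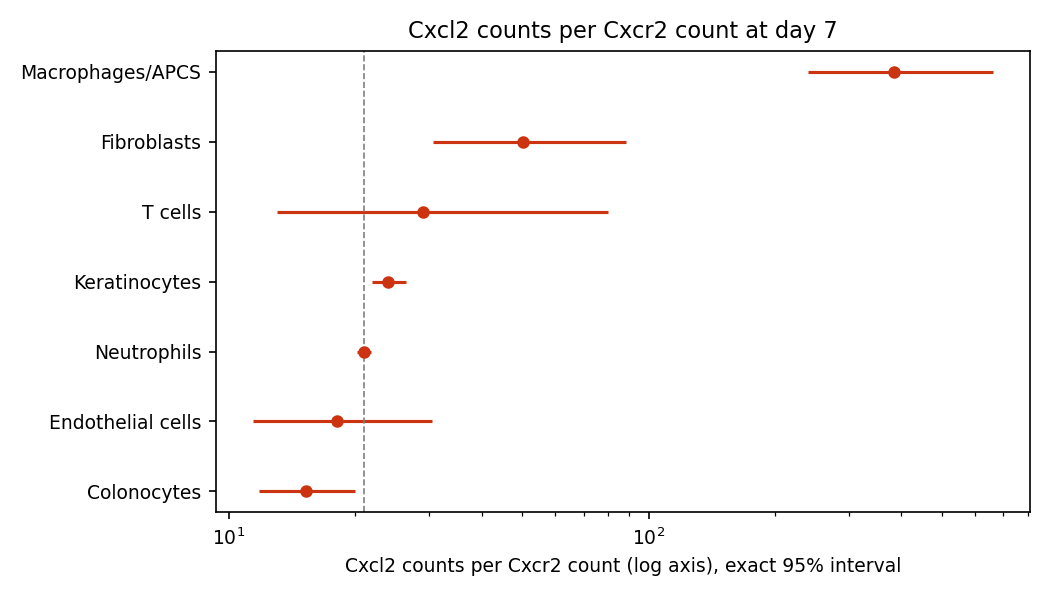
Counts of Cxcl2 per count of Cxcr2 at day 7 (x axis, log axis) in 7 cell types, with exact 95% intervals and a dashed line at the neutrophil value of 20.98. Macrophages (385), fibroblasts (50.1) and keratinocytes (24.0) lay above the line and colonocytes (15.2) below it, with intervals that did not reach it.

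The members were then read against all genes of the same cell types. A gene was counted as higher or lower when its log2 ratio, with 10 CPM added to both levels, was at least 1 in size, counting only genes that reached 5 CPM in one library or the other. In keratinocytes at day 7 against day 0, 5 of the 5 members at 5 CPM or more were higher (Cxcr2 was below 5 CPM), where 1.15% of all genes were higher and 0.971% lower. With equal cluster weights Cxcl1 was below the limit, at 0.97. At day 42 against day 0 it was 4 of 5 (Cxcl2, Cxcl3, Cxcl5 and Ppbp), where 2.31% of genes were higher and 1.99% lower. Of these, Ppbp was at 0.82 with equal cluster weights, and Cxcl2 at 0.89 without the 5% of cells with the highest doublet scores. In fibroblasts at day 7 against day 0, 5 of 6 were higher, all but Cxcr2, where 2.65% of genes were higher and 2.25% lower. Without the 10 cells with most counts Cxcl3 was at 0.08, and with T cell counts subtracted Cxcl3 was at 0.77 and Ppbp at 0.76. In endothelial cells 4 of 6 (Cxcl1, Cxcl2, Cxcl5 and Ppbp) were higher, where 5.07% were higher and 5.14% lower. The keratinocyte markers summed to 612 CPM at day 0 and 1530.1 at day 7 in endothelial cells, with 6 of 6 above 0 at both days, and their part in these counts was not tested. Cxcl5 and Ppbp had 1 count each in endothelial cells at day 0, and without the 10 cells with most counts the log2 ratio of Cxcl5 was 0.76 beside 2.16. T cells, whose mast cell and neutrophil markers were also highest at day 7, had 4 of 6 higher at that day (Cxcl2, Cxcl5, Ppbp and Cxcr2) and Cxcl1 lower, where 3.6% of genes were higher and 3.94% lower. Their members had a median log2 ratio of 1.66, beside -0.05 for all genes. In neutrophils at day 42 against day 7, Ppbp was higher and Cxcl3 lower, where 4.7% were higher and 1.73% lower. Ppbp had 36 counts there at day 42. It was below the limit with size factors, without the 10 cells with most counts and with T cell counts subtracted. The keratinocyte markers summed to 1179 and 1778 CPM in neutrophils at day 7 and day 42, and their part in the Ppbp counts was not tested. The median log2 ratio of the members was 2.76 and 2.35 in keratinocytes at day 7 and day 42, 2.30 in fibroblasts, 2.27 in endothelial cells and 0.16 in neutrophils, and that of all genes in the same order -0.03, -0.05, -0.05, -0.03 and 0.26. The members were chosen with such results known, and the comparisons with day 0 share its library, so these counts are a description.

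The shares of all genes given above apply to the following lists too. Of 12 cytokines that induce these chemokines, few reached 5 CPM in keratinocytes. At day 7 against day 0, 1 of the 4 that did was higher and none lower, namely Il1b, with 3.47 CPM at day 0, 82.9 at day 7 and 21.8 at day 42. Il1b was highest in neutrophils, at 15778 CPM at day 42, and its level in keratinocytes stands beside the neutrophil markers above. Il36g, an interleukin 1 family member of squamous epithelium that the gene table names Il1f9, had 3.85 CPM, 14.5 and 8.14 in keratinocytes, a log2 ratio of 0.82 at day 7 that was not past the limit. In fibroblasts 3 of 4 were higher at day 7 and none lower. They were Il1b (5.35 and 113 CPM, beside the neutrophil markers of fibroblasts above), Il6 (6.43 and 54.7) and Csf3, the growth factor of neutrophils, with no count at day 0 and 103 counts, or 56.3 CPM, at day 7. These 3 were also higher in T cells at day 7, with Osm, of 9, where Tnf and Csf2 were lower. In endothelial cells 2 of 3 were higher, and Csf3 had 30.8 CPM at day 0 and 764 at day 7. In neutrophils at day 42 against day 7, Osm was higher and Tnf and Csf3 were lower, of 6.

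In keratinocytes 0 of 7 receptors of these cytokines and 0 of 10 genes of NF-kappaB and mRNA decay were past the limit at either later day. Il17ra, the shared receptor chain for interleukin 17, named like Il36g after its values were seen, had 7.85 CPM, 8.25 and 7.55 there. In fibroblasts at day 7, Il1r1, the interleukin 1 receptor, was higher (47.3 and 199 CPM) and Il6ra lower (91.2 and 36.6) of 8 receptors. Nfkbiz and Tnfaip3, an NF-kappaB cofactor and an NF-kappaB inhibitor, were higher there of 10 (45.6 and 107 CPM, and 28.3 and 138 CPM). In endothelial cells Il1r1 was higher of 7 receptors (54.6 and 121 CPM), and Zfp36, which promotes mRNA decay, was lower of 10 (2588 and 1003 CPM). In lymphatic endothelium at day 7, 5 of 10 were higher (Relb, Nfkbia, Nfkbiz, Tnfaip3 and Zfp36), where 6.5% of genes were higher and 4.55% lower. The 8 neutrophil markers summed to 9.79 CPM there at day 0 and 2755 at day 7, with 2 and 8 of 8 above 0. Their part in these changes was not tested. Of the other CXC ligands, receptors and scavengers, 0 of 3 were past the limit in keratinocytes and 0 of 6 in fibroblasts at day 7. Endothelial cells had more Ackr1, the chemokine-binding receptor of venules (135 and 807 CPM), and less Cxcl12, a ligand of Cxcr4 (731 and 123 CPM), of 6. In neutrophils at day 42 against day 7, Il6ra and Csf3r, the receptor for Csf3, were higher of 6 receptors (Csf3r 750.1 and 1671 CPM), and Cxcr4 was higher of 6 in the last group (60.9 and 369 CPM). Median log2 ratios of the 4 lists, in the order cytokines, receptors, NF-kappaB and decay genes, and other CXC genes, were 0.76, -0.12, 0.04 and -0.59 in keratinocytes at day 7 against day 0. They were 2.35, 0.24, 0.54 and 0.06 in fibroblasts and 2.68, -0.07, -0.17 and 0.16 in endothelial cells, to be read beside the medians of all genes above.

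The genes with the pattern most like each member were found by Pearson's r of log2(CPM + 10) over 30 profiles of cell type and day with at least 50 cells, among 7937 genes with at least 50 CPM in some profile. The profiles share libraries, so r is a description. For Cxcl1 they were Ccl2 (r = 0.78), Timp1, Prdm1, Tubb6 and Socs3. For Cxcl2 they were Tyrobp (0.94), Alox5ap, Wfdc17, Il1b and Ifitm6, and for Cxcl3 Il23a (0.90), Slc7a11, Fpr2, Mmp8 and Trem3. For Cxcl5 they were Aldh1a3 (0.81), Fst, Pi15, Krt16 and Inhba, and for Ppbp the keratin Krt6b (0.89), Prss27, Sprr2d, Krt6a and Urah. For Cxcr2 they were AC110211.1 (0.98), Mrgpra2b, A530064D06Rik, Stfa2l1 and 9830107B12Rik. Between members, r was 0.78 for Cxcl2 and Cxcl3, 0.68 for Cxcl5 and Ppbp and -0.17 for Cxcl1 and Ppbp. Over 60 profiles of cluster and day, chosen after seeing the data, Ppbp was the gene nearest to Cxcl5 after Aldh1a3, at 0.81.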

How the data were processed

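The authors deposited raw counts for each gene in each cell and a cell table with day, cluster and cell type. The deposited size factor is a ratio of each cell's total count to a common value, and was used only to check that the table follows the order of the matrix. Cell Ranger 3.0.2 and the build mm10 are given in the submitters' processing notes, and filters on cells are not given in the sources used here. Counts were summed per cell type or cluster and library and given as CPM. Log2 ratios used a pseudocount of 10 CPM and groups of at least 50 cells. Where one group had no count, a floor of 3 counts in that group was used. No doublets were removed. Named genes are the 6 members, genes past a log2 ratio of 1 in 4 lists of 9 to 12 genes, the 4 platelet markers, Il36g and Il17ra, the last 2 chosen after their values were seen, and the 5 genes most like each member. Members and lists were chosen with earlier results of these data known. Listed symbols Il36a and Il36g were matched through RefSeq synonyms. Log2 ratios were tested on simulated counts. Alternatives were a filter on cells, thinning, size factors, a pseudocount of 1 CPM, leaving out the 10 cells with most counts, equal cluster weights, subtraction of T cell counts, and doublet removal with Scrublet. Removal of cells with shared barcodes was added after seeing the data. Software was scanpy 1.11.5, matplotlib 3.10.9, scipy 1.17.1, pandas 2.3.3 and numpy 2.4.6 under Python 3.11.15.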

Additional observations from a re-analysis of the deposited data

Results flagged for a closer look

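Cxcl1 moved in opposite directions in endothelial cells and T cells. The log2 ratio of day 7 against day 0 was 3.03 in endothelial cells and -1.39 in T cells, and that of day 42 against day 7 was -5.12 in endothelial cells and 1.002 in T cells. The T cell values rest on 9, 0 and 2 counts at day 0, day 7 and day 42, and without the 10 cells with most counts both T cell values were 0.00. With 1 library per day the difference was not tested.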

How the results depend on the processing

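Of 125 log2 ratios, 76 were at least 1 in size. Under the alternatives these gave 633 values, of which 555 were still past the limit, 599 had the same sign and 3 had the opposite one. The 3 were Cxcl5 in unknown cells, day 7 against day 0, with T cell counts subtracted (-0.13), Ppbp in fibroblasts, day 42 against day 7, without the 10 cells with most counts (-0.17), and Ppbp in keratinocytes, day 42 against day 7, with equal cluster weights (-0.28). Values without the 10 cells leave out those with most counts of the gene. Cxcl1 in fibroblasts, day 7 against day 0 (2.83), was 2.98 with a pseudocount of 1 CPM, 2.34 without the 10 cells and 3.00 with T cell counts subtracted. In keratinocytes Cxcl1 (1.29) was 1.04 thinned, 2.19 with a pseudocount of 1 CPM, 1.47 without the 10 cells, 0.97 with equal weights and 1.74 with the subtraction. Cxcl5 in keratinocytes at day 7 (4.68) was 4.34 thinned, 6.12 with a pseudocount of 1 CPM, 4.83 without the 10 cells and 4.54 with equal weights, and at day 42 (5.00) it was 5.11 with size factors, 6.45, 5.19 and 3.72 in the last 3 settings. Neutrophils' share of day 7 Cxcl2 counts (71.9%) was 71.3% with the cell filter, 86.3% thinned, 70.8% without the 10 cells, 88.5% with the subtraction and 78.3% without the top 5% of Scrublet scores. Cxcr2 in neutrophils at day 7 (597 CPM) was 661 thinned and 704 with size factors. Size factors also move the level of day 42, which is not given here.

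The subtraction left 43 of 65 past the limit, or 40 of 51 without Cxcl2, a count chosen after seeing the data. For Cxcl2 it is void outside neutrophils and macrophages, since T cells at day 0 had more counts per cell than the other types, and so is the 88.5%. Leaving out 10 cells left 49 of 76. Scrublet's own threshold marked 4.10%, 0% and 2.52% of cells, so the highest 5% of scores was used. Equal weights need more than 1 cluster, and size factors, equal weights and pseudocount do not apply to the Cxcl2 share. No paired analysis was possible because each day has 1 library. Groups of few cells, such as neutrophils at day 0, limit what depth can show.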
